A study of Rattus norvegicus with 6 samples.

Results

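DNA damage signalling and repair genes were followed in cultured rat lenses on 6 GeneChip Rat Gene 2.0 ST arrays. The list holds 45 genes, grouped by their known roles, and it stands beside 19086 probe sets of these arrays that carry a gene name. It counts 5 kinases, 8 sensors and scaffolds of broken DNA, 3 genes of homologous recombination, 4 of end joining, 11 of base excision and single-strand break repair, 2 of mismatch repair, 7 of nucleotide excision repair, 3 subunits of the single-strand binding complex and 2 others. By symbol, 39 of the 45 were found, each on 1 probe set of its own. Mre11a was found through its Entrez ID under the newer symbol Mre11 and is kept apart from the 39. Rnf8 and Ercc2 lie only on probe sets shared with another gene, so their values were not used. Atr, Prkdc and Tp53bp1 were not analysed here.

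The lenses came from male Sprague-Dawley rats aged 6 weeks. In 1 array they had been kept in 30 mM galactose for 6 days and received AZD0156 (20 µM) during the final 3 days, and in 1 array KU55933 was given in the same way at the same concentration. Both compounds inhibit the kinase Atm. In 3 arrays the lenses had 30 mM galactose alone for 6 days, and in 1 array, the Control, they had no galactose. How many lenses an array stands for was not stated. The culture time of the Control is 6 days in the methods and 4 days in the scheme. DMSO, the solvent of the inhibitors, is named for the inhibitor lenses and for those in galactose alone but not for the Control, so galactose, DMSO and culture time cannot be told apart in that comparison. Nothing states that the galactose replicates were separate animals or cultures, and a p-value then measures only the spread between these arrays.

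Cells meet a broken DNA molecule with sensors that hold the ends, kinases that pass the signal on, and enzymes that cut, fill and rejoin the strands. Atm is the kinase that answers double-strand breaks. The Mre11-Rad50-Nbn complex brings it to the ends, and it phosphorylates the histone H2AX and the checkpoint kinase Chek2. Base excision repair removes oxidized or lost bases, nucleotide excision repair removes bulky lesions, and end joining and homologous recombination rejoin broken molecules. The lens keeps its cells for life, and oxidative damage to its epithelium is a known feature of cataract.

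The promoters of 3 members are printed as examples. Ppm1d had the lowest difference between galactose and Control among the members, Fen1 had the highest, and Atm is the target of both inhibitors. These genes were chosen after their values were seen. Each window runs from 250 bases before to 50 bases after the start site, 5′ to 3′ on the strand of the gene, as RefSeq gives it on build GRCr8. Ppm1d lies on the plus strand at chr10:70669776-70670075, Fen1 on the minus strand at chr1:216274347-216274646 and Atm on the minus strand at chr8:62828580-62828879. Capitals mark matches, on either strand, to 7 short motifs: GGGCGG (the GC box), CCAAT, TTTCCCGC (an E2F site), CCGGAAG (an Ets site), TGCGCATGC (the NRF1 core), TGACGTCA (the cyclic AMP response element) and TATAAA.
Ppm1d: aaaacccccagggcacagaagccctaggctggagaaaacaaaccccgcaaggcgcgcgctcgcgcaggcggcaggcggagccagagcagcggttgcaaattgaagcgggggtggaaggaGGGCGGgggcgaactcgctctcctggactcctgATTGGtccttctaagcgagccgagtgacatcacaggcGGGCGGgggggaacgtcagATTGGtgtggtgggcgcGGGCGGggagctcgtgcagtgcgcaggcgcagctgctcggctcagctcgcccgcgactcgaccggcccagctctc
Fen1: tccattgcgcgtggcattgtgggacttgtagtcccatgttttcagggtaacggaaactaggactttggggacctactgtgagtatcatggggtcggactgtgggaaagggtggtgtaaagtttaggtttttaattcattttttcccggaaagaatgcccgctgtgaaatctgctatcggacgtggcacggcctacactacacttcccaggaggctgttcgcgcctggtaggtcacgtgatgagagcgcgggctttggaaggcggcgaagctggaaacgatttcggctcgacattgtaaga
Atm: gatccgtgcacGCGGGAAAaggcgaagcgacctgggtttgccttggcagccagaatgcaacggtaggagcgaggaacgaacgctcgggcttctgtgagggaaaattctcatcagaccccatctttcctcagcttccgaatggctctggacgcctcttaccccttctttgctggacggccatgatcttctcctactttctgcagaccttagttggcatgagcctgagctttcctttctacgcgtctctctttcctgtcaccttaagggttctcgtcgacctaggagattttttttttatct

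The Ppm1d window held 3 GC boxes and 2 CCAAT motifs, the Atm window held 1 E2F motif, and the Fen1 window held none of the 7 motifs. Of the 39 members, 32 had a promoter in the RefSeq table. A GC box was found in 23 of the 32 (71.9%), beside 33.1% of all 33365 promoters of the same length. The median GC content was 60.0% over the member promoters, 1 member having 2 of them, and 51.7% over all. TTTCCCGC was found in 3 of the 32 (9.38%), those of Atm, Chek1 and Msh6, beside 0.977% of all. CCGGAAG was found in 7 (21.9%), beside 8.77% of all, and CCAAT in 13 (40.6%), beside 37.5%. TGCGCATGC was found in 2 (6.25%), beside 1.40%, and TGACGTCA and TATAAA in 0, beside 1.83% and 14.2%. The motifs were listed after values of the members and some of their promoters had been seen. A match describes the letters of the window and not a bound site.

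The study kept probe sets whose log2 signal reached 5 on at least 1 array. Of the 39 members, 16 did (41.0%), beside 30.3% of all gene-linked probe sets. They were the sensors Nbn and Kat5, the end-binding subunits Xrcc5 and Xrcc6, Lig1, Lig3, Apex1 and Polb of base excision repair, Pms2 of mismatch repair, Ercc1, Ercc3 and Ddb1 of nucleotide excision repair, Rpa1 and Rpa2, the exonuclease Trex1 and the phosphatase Ppm1d. The signal depends on the probes as well as on the transcript, so reaching 5 does not rank genes by abundance, and a signal below 5 is not absence. In whole lenses, fewer cells of a type and less RNA per cell cannot be told apart.

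By role, those reaching 5 were 0 of 3 kinases, 0 of 3 homologous recombination genes, 2 of 5 sensors, 2 of 4 end joining genes, 4 of 11 base excision genes, 1 of 2 mismatch genes, 3 of 6 nucleotide excision genes, 2 of 3 single-strand binding subunits and both others. On all 6 arrays, 9 members reached 5, namely Xrcc5, Xrcc6, Apex1, Polb, Ercc1, Ercc3, Ddb1, Trex1 and Ppm1d. Array by array, 10 members reached 5 with AZD0156, 14 with KU55933, 10, 15 and 14 in galactose alone and 12 in the Control. Some members lay at the threshold. Pms2 passed through the KU55933 array alone (5.01), Lig1 through Galactose 2 and 3, and Rpa2 through Galactose 2, while Xpa (highest signal 4.98) and Rad50 (4.97) stayed just under it. At other thresholds, 28 members reached 4 and 8 reached 6.

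**Figure D1:**
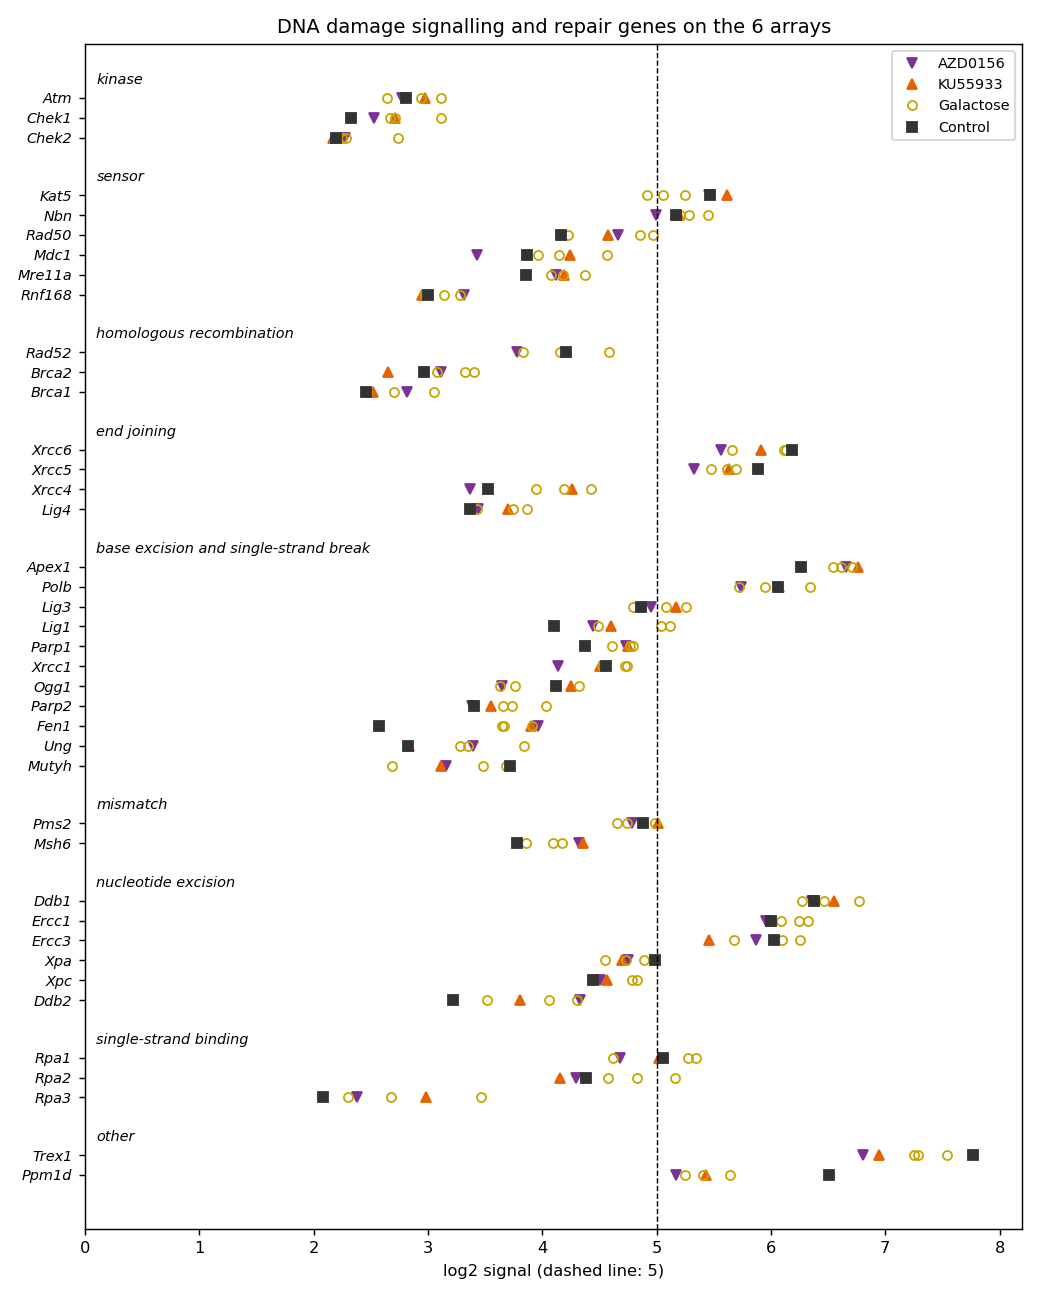
Log2 signal of the 39 members and Mre11a on each of the 6 arrays, grouped by role, with the AZD0156, KU55933, 3 galactose and Control arrays as separate symbols and a dashed line at 5. No kinase or homologous recombination gene has a symbol at or right of the line, whereas Trex1 and Ppm1d lie right of it on all arrays.

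Differences were tested with limma in 1 fit over the 5784 gene-linked probe sets that reached 5, with adjustment over all of them and a threshold of 0.05. The only replicates are the 3 galactose arrays, so the single arrays are assumed to vary like them. For galactose against Control, 2.87% of the 5784 probe sets were called (93 higher and 73 lower in galactose), and 0 of the 16 members. For AZD0156 against galactose, KU55933 against galactose and AZD0156 against KU55933, the share called was 0% each, and 0 members. At an unadjusted p under 0.05 in this filtered fit, 1 of the 16 was lower in galactose than in the Control (Ppm1d). With KU55933, 1 was higher than in galactose (Kat5), and 0 of the 16 passed in the comparisons with AZD0156. Over all tested probe sets, that unadjusted threshold took 645 higher and 688 lower (11.2% and 11.9%) in galactose against Control, 77 and 720 with AZD0156, 133 and 67 (2.30% and 1.16%) with KU55933, and 51 and 622 for AZD0156 against KU55933. In a fit of all 19086 probe sets without the filter, 0 of the 39 members were called in any of the 4 comparisons. The share of all was 0.362% for galactose against Control and 0% for the others. At an unadjusted p under 0.05 there, 3 of the 39 were higher and 1 lower in galactose than in the Control, beside 1299 and 1165 of all. With AZD0156, 0 were higher and 3 lower than in galactose, beside 748 and 1174. With KU55933 these were 0 and 2, beside 422 and 405. For AZD0156 against KU55933 they were 0 and 1, beside 599 and 967. Kat5 did not pass there (unadjusted p = 0.0580 in limma).

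Without the filter, the median difference of the 39 members was 0.22 for galactose minus Control, beside 0.05 over all 19086 probe sets. It was -0.18 with AZD0156, beside -0.02, -0.05 with KU55933, beside 0.01, and -0.16 for AZD0156 minus KU55933, beside -0.03. Over the 16 that passed the filter it was 0.0040 for galactose minus Control, beside -0.02 over all 5784. That median was 0.15 without Galactose 1, -0.0153 without Galactose 2 and -0.0235 without Galactose 3. Over the same 16 the median was -0.27 with AZD0156, beside -0.18, -0.03 with KU55933, beside 0.05, and -0.20 between the inhibitors, beside -0.23. Lig1, Lig3, Pms2 and Rpa2 are among the 16 and passed only through arrays with galactose. Among the probe sets that passed the filter, the AZD0156 array had the lowest median signal, 5.55, against 5.69, 5.75 and 5.81 in galactose. Over all gene-linked probe sets its median was 3.56, inside the galactose range of 3.49 to 3.56. After centring every array on its median over the tested probe sets, the AZD0156 difference of the 16 members was -0.07. The 95% interval of the difference lay within 1 on either side of 0 for 11 of the 16 members with AZD0156, 11 with KU55933, 12 for galactose against Control and 10 between the inhibitors. For the remaining members, the interval does not exclude a difference larger than 1 in size.

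**Figure D2:**
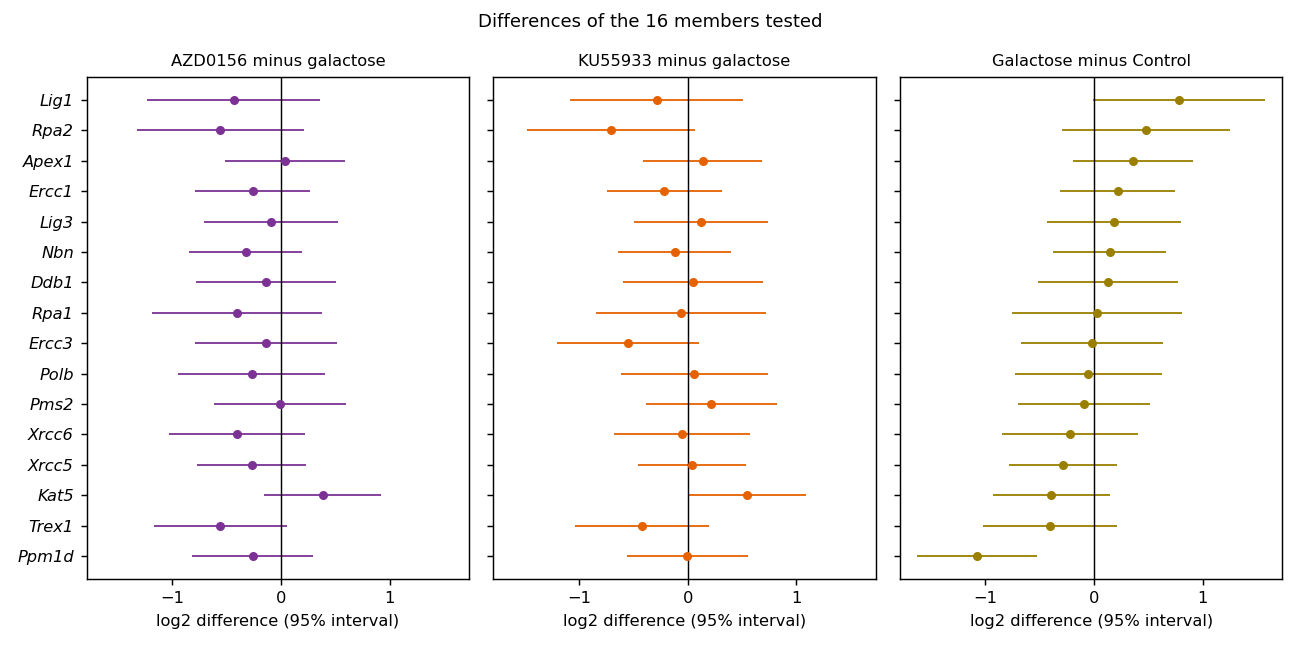
Log2 differences of the 16 tested members with their 95% intervals, for AZD0156 minus galactose, KU55933 minus galactose and galactose minus Control, ordered by the last. In the filtered fit shown, the interval of Ppm1d in galactose minus Control lies below 0 (-1.63 to -0.52). That of Kat5 in KU55933 minus galactose lies just above 0 (0.0044 to 1.08), and all others hold 0. Without the filter, the Kat5 interval holds 0 (-0.02 to 1.11). Lig1 in galactose minus Control (0.07 to 1.49) and Rpa2 in KU55933 minus galactose (-1.37 to -0.04) then exclude 0. So does Trex1 in AZD0156 minus galactose (-1.11 to -0.0062).

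The 3 kinases measured stayed below 5 on every array, and below the median of gene-linked probe sets, which was 3.45 to 3.56. At so low a signal, their differences and intervals do not bound a change in their RNA. Atm, the target of the inhibitors, had a log2 signal of 2.77 with AZD0156, 2.98 with KU55933, 2.94, 2.64 and 3.12 in galactose alone and 2.81 in the Control. The inhibitor and Control arrays lay within the galactose range for Atm, and its 6 values spanned 0.48. Chek1, the checkpoint kinase downstream of Atr, had 2.53 with AZD0156, 2.71 with KU55933, 2.67, 2.71 and 3.11 in galactose alone and 2.33 in the Control. All 3 galactose arrays lay above the Control for this gene. Chek2, the checkpoint kinase downstream of Atm, had 2.28 with AZD0156, 2.17 with KU55933, 2.29, 2.74 and 2.25 in galactose alone and 2.20 in the Control. Galactose 2 stood apart from the other arrays there. Without the filter, Atm differed by -0.13 with AZD0156 (95% interval -0.76 to 0.51), by 0.08 with KU55933 (-0.55 to 0.71), by 0.09 between galactose and Control (-0.54 to 0.72) and by -0.20 between AZD0156 and KU55933 (-0.98 to 0.57), with adjusted p from 0.917 to 0.993 in limma. For galactose minus Control, Chek1 differed by 0.50 (adjusted p = 0.489) and Chek2 by 0.23 (adjusted p = 0.799).

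Among the sensors, Nbn and Kat5 were tested. Nbn, the subunit of the end-binding complex that recruits Atm, had 4.99 with AZD0156, 5.20 with KU55933, 5.28, 5.45 and 5.21 in galactose alone and 5.17 in the Control. Both inhibitor arrays and the Control lay below all galactose arrays, with differences of -0.32 for AZD0156 and -0.12 for KU55933 against galactose, 0.14 for galactose against Control and -0.20 between the inhibitors (adjusted p from 0.560 to 0.992). Kat5, the Tip60 acetyltransferase that acetylates Atm, had 5.46 with AZD0156, 5.62 with KU55933, 4.91, 5.06 and 5.25 in galactose alone and 5.47 in the Control. The AZD0156, KU55933 and Control arrays all lay above the galactose arrays. The difference from galactose was 0.54 with KU55933 (unadjusted p = 0.0486, adjusted p = 0.992 in limma) and 0.38 with AZD0156 (adjusted p = 0.503). Galactose minus Control was -0.39 (adjusted p = 0.349), and AZD0156 minus KU55933 was -0.16 (adjusted p = 0.869).

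The other sensors stayed below 5. Rad50, the ATPase of the end-binding complex, ranged over 4.16 to 4.97. Mre11a, its nuclease, ranged over 3.86 to 4.38. Mdc1, the scaffold that reads phosphorylated H2AX, ranged over 3.43 to 4.57 and was lowest with AZD0156, where it differed from galactose by -0.80 (95% interval -1.48 to -0.11, adjusted p = 0.445 without the filter). Rnf168, a ubiquitin ligase that marks histones at breaks, ranged over 2.95 to 3.31.

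In end joining, the Ku subunits were above 5 on all arrays and their partners below. Xrcc5, the Ku80 subunit, had 5.33 with AZD0156, 5.64 with KU55933, 5.48, 5.69 and 5.62 in galactose alone and 5.88 in the Control. Xrcc6, the Ku70 subunit, had 5.56 with AZD0156, 5.91 with KU55933, 5.66, 6.13 and 6.11 in galactose alone and 6.19 in the Control. For both genes AZD0156 was the lowest array and the Control the highest. The AZD0156 differences from galactose were -0.27 for Xrcc5 and -0.41 for Xrcc6, those of KU55933 were 0.04 and -0.05, those of galactose from the Control were -0.29 and -0.22, and those of AZD0156 from KU55933 were -0.31 and -0.35 (adjusted p from 0.461 to 0.992). Xrcc4, which holds DNA ligase IV, had 3.37 with AZD0156, 4.26 with KU55933, 4.43, 3.94 and 4.19 in galactose alone and 3.52 in the Control. It lay above the Control on all galactose arrays and below all of them with AZD0156, with a difference of -0.82 from galactose (adjusted p = 0.414 without the filter). Lig4, the ligase itself, ranged over 3.37 to 3.86.

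All 3 homologous recombination genes stayed below 5. Brca1, a ubiquitin ligase, ranged over 2.46 to 3.05, Brca2 over 2.65 to 3.41, and Rad52, a strand-annealing protein, over 3.78 to 4.59. Brca2 was lowest with KU55933, at -0.62 from galactose (adjusted p = 0.988 without the filter).

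Base excision and single-strand break repair held the members with the highest difference between galactose and Control. Fen1, the flap endonuclease, did not reach 5 and had 3.96 with AZD0156, 3.90 with KU55933, 3.91, 3.65 and 3.66 in galactose alone and 2.57 in the Control. All 5 arrays with galactose lay above the Control, the KU55933 array lay inside the range in galactose alone, and the AZD0156 array lay just above it. Without the filter, galactose minus Control was 1.17 (95% interval 0.60 to 1.74), and the adjusted p of 0.110 in limma missed the threshold. Lig1, the replicative ligase, had 4.45 with AZD0156, 4.60 with KU55933, 4.49, 5.12 and 5.04 in galactose alone and 4.11 in the Control. The Control was its lowest array, Galactose 1 lay near the inhibitor arrays, and Galactose 2 and 3 lay above 5. Galactose minus Control was 0.78 (adjusted p = 0.342), AZD0156 minus galactose -0.44 (adjusted p = 0.688), KU55933 minus galactose -0.29 (adjusted p = 0.991) and AZD0156 minus KU55933 -0.15 (adjusted p = 0.949). These p-values are from the fit without the filter, which Lig1 passed only through Galactose 2 and 3, the group where it was high.

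Apex1, Polb and Lig3 were the other tested members of this pathway. Apex1, the endonuclease for abasic sites, had 6.66 with AZD0156, 6.76 with KU55933, 6.54, 6.71 and 6.62 in galactose alone and 6.27 in the Control. It was lowest in the Control. Polb, the gap-filling polymerase, had 5.73 with AZD0156, 6.07 with KU55933, 6.34, 5.72 and 5.94 in galactose alone and 6.06 in the Control. Lig3, the ligase partner of Xrcc1, had 4.96 with AZD0156, 5.17 with KU55933, 4.80, 5.09 and 5.25 in galactose alone and 4.87 in the Control. Differences between galactose and Control were 0.35 for Apex1, -0.05 for Polb and 0.18 for Lig3. With AZD0156 they were 0.04, -0.27 and -0.09 from galactose, with KU55933 0.14, 0.06 and 0.12, and between AZD0156 and KU55933 -0.10, -0.33 and -0.21, in the same gene order. Their adjusted p ran from 0.406 to 0.992.

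The members of base excision repair that stayed below 5 gave these ranges. Xrcc1, the scaffold of single-strand break repair, ranged over 4.14 to 4.74 and was lowest with AZD0156. Parp1 and Parp2, polymerases that bind nicks, ranged over 4.38 to 4.80 and 3.39 to 4.04. The glycosylases are the enzymes that cut out damaged bases. Ung, which removes uracil, ranged over 2.83 to 3.84, Ogg1, which removes 8-oxoguanine, over 3.63 to 4.32, and Mutyh, which removes adenine opposite it, over 2.68 to 3.72. Mutyh was lowest on Galactose 1 and highest in the Control.

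In mismatch repair, Pms2, a subunit of the MutL endonuclease, had 4.78 with AZD0156, 5.01 with KU55933, 4.74, 4.98 and 4.65 in galactose alone and 4.88 in the Control, a spread of 0.36 over all arrays. Its differences were -0.01 with AZD0156, 0.22 with KU55933, -0.09 for galactose minus Control and -0.23 between the inhibitors (adjusted p from 0.890 to 0.994 without the filter, which it passed only through KU55933). Msh6, which recognizes mismatches, ranged over 3.78 to 4.35, and both inhibitor arrays lay above the galactose arrays.

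In nucleotide excision repair, 3 members were above 5 on all arrays and none was called. Ercc1, a subunit of the nuclease that cuts 5′ of the lesion, had 5.95 with AZD0156, 6.0002 with KU55933, 6.08, 6.32 and 6.24 in galactose alone and 6.0002 in the Control. Both inhibitor arrays and the Control lay below all galactose arrays, with differences from galactose of -0.26 for AZD0156 and -0.22 for KU55933, and galactose minus Control was 0.22. Ercc3, the XPB translocase of TFIIH, had 5.87 with AZD0156, 5.46 with KU55933, 5.67, 6.26 and 6.09 in galactose alone and 6.03 in the Control. KU55933 was its lowest array, at -0.55 from galactose (adjusted p = 0.992 in limma). This difference passed only without Galactose 1, at -0.72. That fit had 1 residual degree of freedom and called 439 of the 5784 probe sets with KU55933. For Ercc3, AZD0156 differed from galactose by -0.14, galactose from the Control by -0.02 and AZD0156 from KU55933 by 0.41. Ddb1, the adaptor of the Cul4 ubiquitin ligase, had 6.36 with AZD0156, 6.55 with KU55933, 6.27, 6.46 and 6.77 in galactose alone and 6.38 in the Control, with differences of -0.14 for AZD0156, 0.05 for KU55933, 0.12 for galactose minus Control and -0.19 between the inhibitors. Between the inhibitors Ercc1 differed by -0.05.

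The damage recognition factors of this pathway stayed below 5. Xpa, which verifies the lesion, ranged over 4.55 to 4.98 and was highest in the Control. Xpc, which finds lesions across the genome, ranged over 4.44 to 4.83. Ddb2, the subunit that binds ultraviolet damage, ranged over 3.22 to 4.33, with the Control lowest, and galactose minus Control was 0.73 (adjusted p = 0.406 without the filter).

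Replication protein A coats single-stranded DNA. Its large subunit Rpa1 had 4.68 with AZD0156, 5.02 with KU55933, 4.62, 5.35 and 5.27 in galactose alone and 5.05 in the Control. Galactose 1 was the lowest array for Rpa1, and the SD over the galactose arrays was 0.40, the highest among the 16 tested members. Its middle subunit Rpa2 had 4.30 with AZD0156, 4.15 with KU55933, 4.58, 5.16 and 4.83 in galactose alone and 4.38 in the Control. Both inhibitor arrays and the Control lay below all galactose arrays for Rpa2. Rpa2 passed the filter only through Galactose 2, the group where it was high, so its tests are given without the filter. There the KU55933 difference from galactose was -0.70 (adjusted p = 0.988), that of AZD0156 -0.56 (adjusted p = 0.563), galactose minus Control 0.48 (adjusted p = 0.534) and AZD0156 minus KU55933 0.14 (adjusted p = 0.948). For Rpa1 the differences were -0.40 with AZD0156, -0.06 with KU55933, 0.03 for galactose minus Control and -0.34 between the inhibitors (adjusted p from 0.630 to 0.992). The small subunit Rpa3 ranged over 2.09 to 3.46, with Galactose 1 highest.

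Ppm1d, the Wip1 phosphatase that opposes Atm and p53, had the lowest difference between galactose and Control among the members. Its signal was 5.17 with AZD0156, 5.43 with KU55933, 5.41, 5.64 and 5.25 in galactose alone and 6.51 in the Control. All 5 arrays with galactose lay below the Control, and the inhibitor arrays lay close to those in galactose alone. Galactose minus Control was -1.08 (SE 0.23, 95% interval -1.63 to -0.52), and its adjusted p of 0.0643 in limma missed the threshold. It passed only without Galactose 1, with a difference of -1.06 and an adjusted p of 0.000116, in a fit with 1 residual degree of freedom that called 1642 of the 5784 probe sets, and the adjusted p of the other alternatives ran from 0.0551 to 0.165. AZD0156 minus galactose was -0.26 (-0.81 to 0.29), KU55933 minus galactose -0.0011 (-0.55 to 0.55) and AZD0156 minus KU55933 -0.26 (-0.94 to 0.42).

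Trex1, a cytosolic exonuclease for DNA, had 6.80 with AZD0156, 6.94 with KU55933, 7.25, 7.54 and 7.29 in galactose alone and 7.77 in the Control. Both inhibitor arrays lay below all galactose arrays, and the Control lay above them. AZD0156 minus galactose was -0.56 (95% interval -1.17 to 0.05, adjusted p = 0.394), KU55933 minus galactose -0.42 (adjusted p = 0.992), galactose minus Control -0.41 (adjusted p = 0.391) and AZD0156 minus KU55933 -0.14 (adjusted p = 0.906). The AZD0156 difference was called in limma only without Galactose 1, at -0.61. That fit had 1 residual degree of freedom and called 1055 of the 5784 probe sets with AZD0156.

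**Figure D3:**
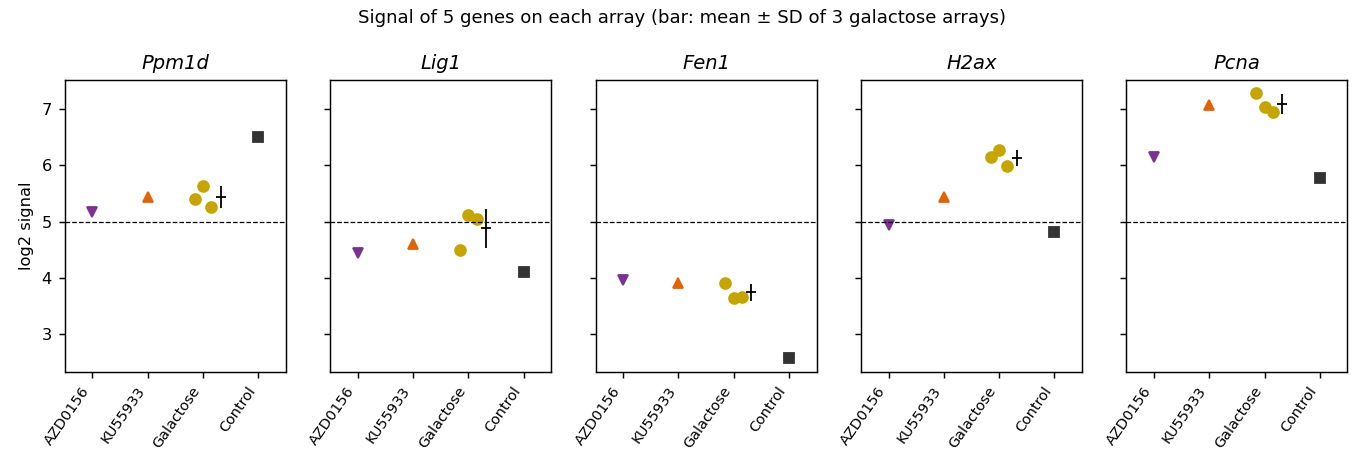
Log2 signal on each array of Ppm1d, Lig1, Fen1, H2ax and Pcna, with the mean and SD of the 3 galactose arrays and a dashed line at 5. The Control lies above all other arrays for Ppm1d and below them for the other 4 genes.

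Single arrays were also set beside the range of the 3 galactose arrays, as a description with no test, and all groups share those arrays. AZD0156 lay above the range for 5 of 39 members (12.8%, beside 26.2% of all probe sets) and below it for 14 (35.9%, beside 29.9%). KU55933 lay above for 4 (10.3%, beside 25.7%) and below for 11 (28.2%, beside 24.0%). All 3 galactose arrays lay below the Control for 7 members (17.9%, beside 25.8%) and above it for 20 (51.3%, beside 33.6%). The 20 include 1 to 6 members of every role but the last, among them Chek1, Chek2, Rad50, Brca1, Brca2, Xrcc4, Fen1, Ung, Ddb2 and Rpa3. After centring every array over all gene-linked probe sets, AZD0156 lay above for 2 members and below for 16 (5.13% and 41.0%, beside 23.2% and 33.1% of all). KU55933 then lay above for 4 and below for 10 (10.3% and 25.6%, beside 24.8% and 24.7%), and the galactose arrays lay below the Control for 8 and above it for 16 (20.5% and 41.0%, beside 32.0% and 26.6%). Galactose 1 was the lowest of the 3 replicates for 21 of the 39 members (53.8%), beside 38.6% of all.

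**Figure D4:**
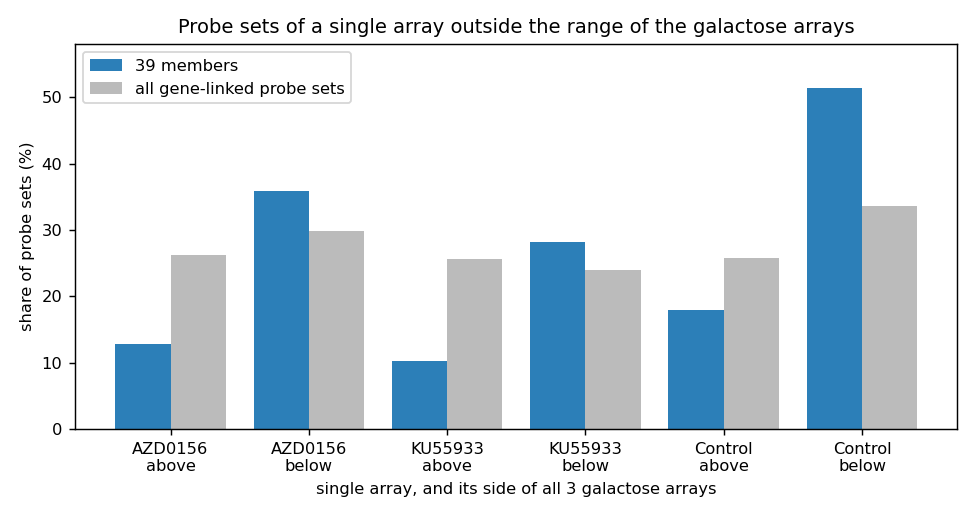
Share of the 39 members and of all 19086 gene-linked probe sets for which the AZD0156, KU55933 or Control array lies above or below all 3 galactose arrays. The AZD0156 array lies above the galactose arrays for 12.8% of members and 26.2% of all probe sets, and the galactose arrays lie above the Control for 51.3% of members and 33.6% of all probe sets.

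Other genes of these pathways were taken from 7 lists of 152 genes, of which 135 matched and 47 were tested. For galactose against Control, 2 of the 47 were called higher and 0 lower, beside 1.61% of all tested probe sets called higher and 2.87% called in either direction. H2ax, the histone that Atm phosphorylates at breaks, had 4.95 with AZD0156, 5.44 with KU55933, 6.14, 6.28 and 5.99 in galactose alone and 4.82 in the Control. The AZD0156 array lay near the Control. H2ax was higher in galactose by 1.32 (95% interval 0.80 to 1.83, adjusted p = 0.0381 in limma). H2ax passed the filter only through arrays with galactose, where it was high, so this call supports nothing. The other H2ax tests of the filtered fit carry the same limit. Pcna, the sliding clamp of DNA polymerases, had 6.15 with AZD0156, 7.08 with KU55933, 7.28, 7.04 and 6.94 in galactose alone and 5.77 in the Control. It rose in galactose by 1.32 (95% interval 0.72 to 1.92, adjusted p = 0.0478 in limma). Both calls were lost without the filter (adjusted p of 0.0808 for H2ax and 0.0857 for Pcna), without Galactose 2 (0.110 and 0.133) and without Galactose 3 (0.105 and 0.126).

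With AZD0156, H2ax differed from galactose by -1.19 (adjusted p = 0.212) and Pcna by -0.93 (adjusted p = 0.230), and with KU55933 by -0.70 (adjusted p = 0.992) and -0.01 (adjusted p = 0.999). AZD0156 minus KU55933 was -0.49 for H2ax and -0.92 for Pcna (adjusted p = 0.525 and 0.362). Of the 47, 0 were called in these 3 comparisons. Without Galactose 1, limma called H2ax with AZD0156 and KU55933, and Pcna with AZD0156 and between the inhibitors. That fit had 1 residual degree of freedom. It called 1055 of the 5784 probe sets with AZD0156, 439 with KU55933 and 804 between the inhibitors, so no weight is put on these calls. At an unadjusted p under 0.05, 9 of the 47 were higher and 0 lower in galactose than in the Control. Of all 5784 tested probe sets, 645 and 688 were (11.2% and 11.9%). With AZD0156, 0 of the 47 were higher and 10 lower than in galactose, beside 77 and 720 of the 5784. With KU55933 these were 0 and 1, beside 133 and 67. For AZD0156 against KU55933 they were 0 and 7, beside 51 and 622. The median difference of the 47 was 0.15 for galactose minus Control, beside -0.02 over all tested probe sets, -0.23 with AZD0156, beside -0.18, -0.02 with KU55933, beside 0.05, and -0.17 between the inhibitors, beside -0.23. Among the 47, H2ax, Gtf2h4, Xab2, Rev7 and Paxx passed the filter only through arrays with galactose, and Poll only through the Control. The filter thus shares in these counts and medians. The matched genes were not counted without it, so nothing is drawn from them.

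In lists with no call, the genes with the largest differences between galactose and Control were as follows. In nucleotide excision repair, Gtf2h4, a subunit of TFIIH, had 4.75, 5.44 and 5.57 in galactose, against 3.54 in the Control, a difference of 1.71. Xab2 had 0.80 and Gtf2h5, the smallest subunit of TFIIH, 0.60 (adjusted p = 0.202 in limma for Gtf2h5). In end joining, Rev7, a shieldin subunit, had 0.69 and Paxx 0.61. Gtf2h4, Xab2, Rev7 and Paxx reached 5 only on arrays with galactose, where they were high, so their tests are not given. Poll, a gap-filling polymerase, had -0.57. It passed the filter only through the Control (5.39), the group where it was high, so its test is not given. In homologous recombination and the Fanconi pathway, Sem1, Usp1 and Wdr48 had 0.24, -0.16 and -0.14. In mismatch repair, Pold2, Pold3 and Rfc1, which belong to the replication machinery, had -0.19, 0.15 and -0.05. In direct reversal, Mgmt and Alkbh3, which remove alkyl groups, had 0.21 and -0.08.

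The label of the tissue was checked on marker genes. Of 13 lens markers 9 matched, and all 9 reached 5 on at least 1 array, 8 of them on all 6. Of the epithelium markers, 6 of 6 did so on at least 1 array and 4 on all 6. Foxe3 and Pax6 stand in both lists. Markers of immune cells (5 matched), endothelium (2), retina (4) and the iris and ciliary body (4) all stayed below 5, and 0 of 3 blood markers matched. Over the arrays, 22.5% of gene-linked probe sets reached 5 with AZD0156, 25.1% with KU55933, 23.9% to 25.6% in galactose alone and 24.7% in the Control. The SD over the 3 galactose arrays had a median of 0.21 for the 16 tested members, beside 0.20 for all tested probe sets.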

How the data were processed

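The 6 arrays were deposited as log2 signals, which the authors obtained in R by Robust Multi-array Average over all arrays together (background correction, quantile normalization and 1 value per probe set). For the R package and the annotation nothing is stated in the sources used here.

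The log2 values were used as deposited. Of 36685 probe sets, 19086 carry a gene in the platform annotation, 18511 with 1 symbol and 575 with several. The 5784 at 5 or above on at least 1 array entered limma 3.58.1 (R 4.3.3), in 1 fit with 4 group means and a trend on the mean signal. The fit had 2 residual degrees of freedom, a prior of 4.967, and a median standard error of 0.257 for galactose against Control. Adjustment followed Benjamini and Hochberg over the whole table, at a threshold of 0.05. The few arrays limit the precision. The procedure was tested on simulated data in which all arrays had the same spread. That test cannot show whether the single arrays vary like the galactose arrays.

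All 45 members are named. Those at 5 or above are given on each array with the 4 differences. The others are given by their range, with each array for Atm, Chek1 and Chek2 and for examples chosen after their values were seen. From each other list, called genes are named, or else up to 3 with the largest difference between galactose and Control. Members and lists were chosen with earlier results of these data known. Alternatives were other filters, array centring, probe sets with 1 symbol, no trend, and leaving out each galactose replicate. Counts outside the galactose range under centring were added after seeing the data. Promoter windows are from RefSeq on GRCr8. Tables and figures were made in Python 3.11.15 with pandas 2.3.3.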

Additional observations from a re-analysis of the deposited data

How the results depend on the processing

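The number of probe sets called in galactose against Control was 166, and 69 without the filter, 109 at 6 or above, 87 at 5 or above on all arrays, and from 6 to 1642 when 1 galactose replicate was left out. Leaving out 1 replicate gave 0 to 1055 calls for AZD0156, 0 to 439 for KU55933 and 0 to 804 between the inhibitors. The high ends all came without Galactose 1, where the prior rose to 108.2 degrees of freedom and the residual ones numbered 1. Without it 2 members were called in galactose against Control (0 to 2 over the replicates left out, Lig1 and Ppm1d), 1 with AZD0156 (0 to 1, Trex1) and 1 with KU55933 (0 to 1, Ercc3), and 0 between the inhibitors. No other alternative called a member. Lig1 entered the test only through Galactose 2 and 3, the arrays kept in that fit, and its adjusted p without the filter was 0.342, so its call supports nothing. The members reaching the threshold numbered 28 at 4 and 8 at 6. The median difference of the members between AZD0156 and KU55933 was 0.0406 with each array centred, against -0.20 as reported.

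Of the single differences, 26 changed sign in 32 cases, 14 by centring and 18 by leaving out a replicate, all uncalled and 0.193 or less in size with the changed sign, with an adjusted p of 0.672 or more in limma, and the cause was not tested. With centring, AZD0156 minus KU55933 became 0.0338 for Nbn, 0.0765 for Kat5, 0.0871 for Lig1, 0.0256 for Lig3, 0.140 for Apex1, 0.0091 for Pms2, 0.193 for Ercc1, 0.0475 for Ddb1 and 0.0994 for Trex1, AZD0156 minus galactose became 0.109 for Lig3, 0.190 for Pms2, 0.0593 for Ercc3 and 0.0576 for Ddb1, and galactose minus Control became 0.0202 for Ercc3. Over the replicates left out, KU55933 minus galactose ran from -0.0192 to 0.0881 for Xrcc5, -0.207 to 0.0290 for Xrcc6, -0.0020 to 0.226 for Lig3, -0.0778 to 0.234 for Polb, -0.0667 to 0.183 for Ddb1, -0.291 to 0.0710 for Rpa1, -0.0917 to 0.103 for Ppm1d and -0.0862 to 0.0867 for Pcna. AZD0156 minus galactose ran from -0.215 to 0.0137 for Lig3, -0.0017 to 0.0829 for Apex1 and -0.0794 to 0.0858 for Pms2. Galactose minus Control ran from -0.224 to 0.0871 for Polb, -0.145 to 0.146 for Ercc3, -0.0100 to 0.240 for Ddb1 and -0.104 to 0.259 for Rpa1. No paired analysis was possible because only the galactose group has replicates. Where 1 array stands for a group, its own spread is unknown.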
